A study of Mus musculus with 26 samples.

Results

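Cells keep proteins folded with chaperones, and a pair of stress pathways adjust their supply. In the heat shock response the transcription factor HSF1 is released when unfolded proteins occupy cytosolic chaperones, and it switches on genes for Hsp70, Hsp90, J-domain partners and small heat shock proteins. In the unfolded protein response the sensors IRE1 (gene Ern1), ATF6 and PERK detect unfolded protein in the endoplasmic reticulum (ER), and the factors XBP1, ATF6 and ATF4 then raise ER chaperones, degradation factors and, under lasting stress, the proapoptotic factor CHOP (gene Ddit3). Neurons hold high basal levels of cytosolic chaperones, and many of them are known for a weak inducible heat shock response.

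The 37 genes described here are 16 cytosolic chaperones and co-chaperones, 3 mitochondrial chaperones, 11 genes for ER chaperones and ER-associated degradation, and 7 stress regulators, chosen by gene symbol from 55487 genes in each count table. All 37 were expressed highly enough to be tested, among 18050 genes that were. None of them rose or fell in heterozygous mutant (HET) frontal cortex past the adjusted threshold of 0.05 that was set for edgeR's quasi-likelihood test. Several cytosolic and ER chaperones had lower means in HET mice, with groups that overlapped. Across single mice, most ER chaperones followed the level of Hspa5, in both genotypes.

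The study measured RNA in frontal cortex of 7 HET mice, which carry a frameshift variant of Adnp on one allele, and 7 wild-type (WT) littermates, both adolescent according to the series' design text. The labels name no agent, strain, sex or age in days. ADNP is a chromatin protein whose human counterpart is mutated in a neurodevelopmental syndrome. Open chromatin was measured by ATAC-seq in 3 HET and 3 WT samples and deposited as 1 merged peak list per genotype.

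Library totals were 33280785 to 47079906 counts in HET and 32814841 to 48291175 in WT. CPM values are counts scaled to a common library total with TMM factors. Adnp itself had 5.34, 6.43 and 8.68 CPM (lowest, median and highest) in HET and 5.67, 6.19 and 7.84 CPM in WT, with an adjusted p of 0.772 in edgeR, and a frameshift need not change the mRNA level, so this does not check the genotype labels. The cortical excitatory marker Slc17a7 was present in every library, at 138 to 1589 CPM in HET and 462 to 1844 CPM in WT. The mean of 11 excitatory neuron markers ran from 3.91 to 6.60 log2 CPM in HET and from 5.67 to 7.16 in WT, with 9 of 11 negative in HET over WT, 0 called, 5 at unadjusted p under 0.05 and none at 0. HET 4 (3.91) and HET 1 (4.92) were lowest. The 9 thalamic markers were all positive in HET over WT, with 0 called and 4 at unadjusted p under 0.05. Their list means were 5.56 ± 1.17 (HET) and 4.56 ± 0.854 (WT) on the log2 CPM scale (SD, n = 7 each). The mean of 9 striatal markers ran from 4.13 to 7.98 log2 CPM in HET and from 3.90 to 7.55 in WT. All 9 striatal markers were positive, with 0 called and 0 at unadjusted p under 0.05. All 5 red cell markers were negative, each at unadjusted p under 0.05 with 0 called and a median log2 fold change of -0.65, and their mean ran from 3.36 to 4.24 log2 CPM in HET and from 3.67 to 5.45 in WT. All 7 microglia markers were negative as well (median -0.22, 0 called, 3 at unadjusted p under 0.05), with means of 4.48 to 5.06 log2 CPM in HET and 4.91 to 5.20 in WT. In bulk tissue the number of cells of a type, the RNA per cell and the mix of tissue in each sample cannot be told apart. All 12 immediate early genes, which report recent neuronal activity, were negative, with means of 4.77 ± 0.741 log2 CPM in HET and 5.93 ± 0.541 in WT, 0 called and 9 at unadjusted p under 0.05. The part that tissue makeup and neuronal activity play in the results below was not tested beyond the fits given. The labels describe each library as one mouse, so p-values weigh differences against the variation among mice.

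Levels between genes were compared as RPKM, CPM divided by the exon length in kilobases. The cytosolic chaperones spanned the widest range. Hsp90ab1, the constitutive cytosolic Hsp90, stood highest with 541 RPKM in HET and 580 ± 21.3 in WT (mean, with SD over 7 WT libraries). Hspa8, the constitutive Hsp70 of the cell, followed with 386 RPKM in HET and 429 ± 28.2 in WT, and Hsp90aa1, the stress-inducible Hsp90, with 295 RPKM in HET and 298 ± 17.2 in WT. The heat-inducible Hsp70 copies lay near the other end, Hspa1b at 2.78 RPKM in HET and 4.02 ± 0.822 in WT, and Hspa1a at 1.62 RPKM in HET and 2.03 ± 0.168 in WT. Among ER genes Calr, the calcium-binding lectin chaperone calreticulin, had the highest level, 124 RPKM in HET and 148 ± 10.1 in WT, ahead of Hspa5, the ER Hsp70 known as BiP (68.6 RPKM in HET and 74.5 ± 10.9 in WT). The least expressed member was Trib3, a pseudokinase gene induced downstream of ATF4 and CHOP, at 0.498 RPKM in HET and 0.333 ± 0.0742 in WT. The 3 highest genes and the lowest were the same in both genotypes.

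**Figure D1:**
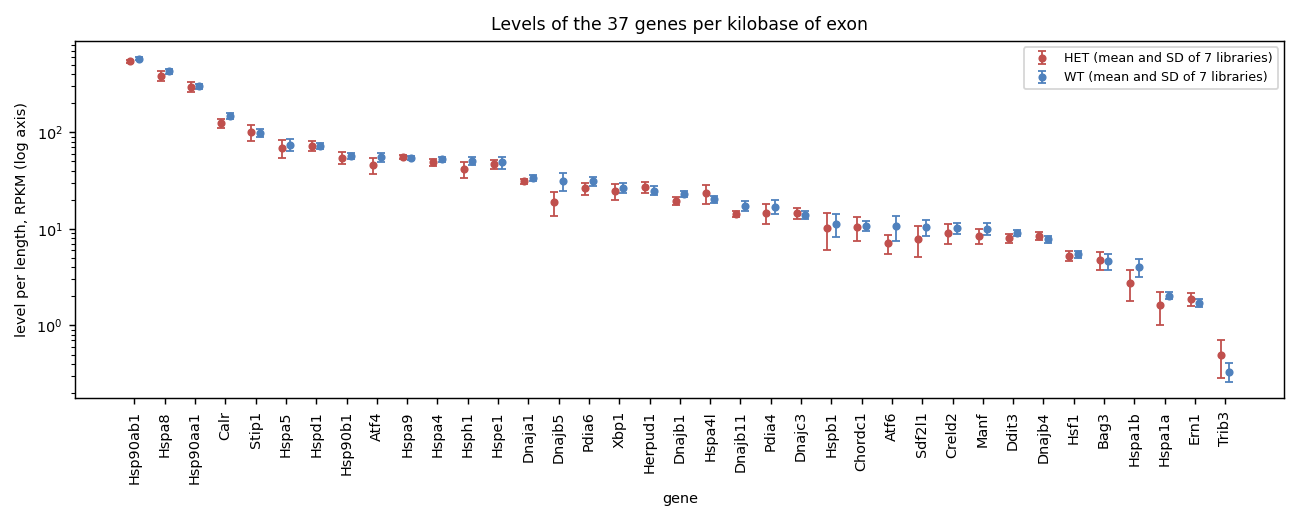
Mean level per kilobase of exon (RPKM, log axis) of the 37 genes in HET (red) and WT (blue), with SD over 7 libraries, ordered by the WT mean. Hsp90ab1 stands at 541 RPKM in HET and 580 in WT and Trib3 at 0.498 in HET and 0.333 in WT.

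The promoters of these genes carry the elements through which both responses are known to act, and the sequences are shown because the members divide by them. RefSeq promoter windows on GRCm38.p6 (250 bases before to 50 after a gene's start) were at hand for 30 of the 37 genes and for 11798 genes in all. The ER stress element (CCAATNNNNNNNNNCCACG, both strands, which contains a CCAAT box) is bound by NF-Y and ATF6. Each line gives the 250 bases upstream of the start, 5′ to 3′ on the gene's strand, with the fixed bases of each match in capitals. Hspa5 lies at chr2:34771840-34772089 on the plus strand, Hsp90b1, the ER Hsp90 known as GRP94, at chr10:86705445-86705694 on the minus strand, and Calr at chr8:84846932-84847181 on the minus strand. Hspb1, a small heat shock protein, is at chr5:135887669-135887918 on the plus strand and Hspa1b at chr17:34959239-34959488 on the minus strand, both marked for a pair of inverted heat shock units (GAANNTTC or TTCNNGAA).
Hspa5: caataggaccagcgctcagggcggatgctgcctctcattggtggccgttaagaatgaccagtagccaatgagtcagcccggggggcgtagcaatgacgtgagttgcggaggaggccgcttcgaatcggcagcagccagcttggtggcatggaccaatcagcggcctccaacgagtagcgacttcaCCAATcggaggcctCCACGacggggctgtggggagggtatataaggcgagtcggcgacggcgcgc
Hsp90b1: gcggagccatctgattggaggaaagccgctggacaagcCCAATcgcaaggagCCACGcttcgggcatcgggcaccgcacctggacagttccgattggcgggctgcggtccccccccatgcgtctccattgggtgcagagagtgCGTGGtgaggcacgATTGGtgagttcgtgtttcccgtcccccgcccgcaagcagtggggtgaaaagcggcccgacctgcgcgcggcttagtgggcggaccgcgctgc
Calr: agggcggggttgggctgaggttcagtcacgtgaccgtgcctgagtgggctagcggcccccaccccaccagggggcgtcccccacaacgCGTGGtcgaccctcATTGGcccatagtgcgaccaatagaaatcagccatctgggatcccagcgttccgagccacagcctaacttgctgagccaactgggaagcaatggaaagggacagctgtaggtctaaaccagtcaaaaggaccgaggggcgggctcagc
Hspb1: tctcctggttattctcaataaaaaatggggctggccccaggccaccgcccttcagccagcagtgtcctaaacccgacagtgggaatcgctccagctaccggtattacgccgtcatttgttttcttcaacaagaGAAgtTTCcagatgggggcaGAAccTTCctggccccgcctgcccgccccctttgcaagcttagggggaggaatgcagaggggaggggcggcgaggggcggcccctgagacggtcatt
Hspa1b: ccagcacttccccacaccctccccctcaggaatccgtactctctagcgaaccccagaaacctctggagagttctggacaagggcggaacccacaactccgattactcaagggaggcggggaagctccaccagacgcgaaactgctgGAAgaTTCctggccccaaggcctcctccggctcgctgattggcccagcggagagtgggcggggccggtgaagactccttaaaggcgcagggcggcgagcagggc
The Hspa5 and Calr windows each hold 1 exact match to the ER stress element and the Hsp90b1 window holds 2, in opposite orientations. Variants that differ from these letters were not searched for, so the windows may hold further elements.

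The ER stress element was found in 17 of 11798 promoters (0.144%). Of those 17, 6 belonged to the group of ER genes: Hspa5, Hsp90b1, Dnajc3 (a lumenal co-chaperone), Calr, Pdia6 (a disulfide isomerase) and Creld2. That is 6 of the 10 ER genes with a promoter window, and 0 of 13 cytosolic genes. The shorter CCAAT box was in 10 of 10 ER promoters, against 38.2% of all promoters. Heat shock elements showed the opposite division. The 2-unit form (GAANNTTC or TTCNNGAA) was in 7 of 13 cytosolic, 1 of 2 mitochondrial and 0 of 10 ER promoters, against 11.7% of all promoters. The 3-unit form (GAANNTTCNNGAA or TTCNNGAANNTTC), which contains the 2-unit form, was in Hsph1, Chordc1 and Hspe1, against 0.424% of all. The amino acid response core TGATGNAA was in Herpud1 and Trib3 (2.2% of all), and the core TGACGTGG was in 0 members (0.865% of all). These matches describe letters in a window and show no binding. The upstream 250 bases of Hspa1a and Hspa1b were identical at 247 positions (98.8%). The coding sequences of this pair are known to be near-identical too, and reads that map to several places are left out by the counting defaults, so the values of both copies are uncertain. How many reads were lost in this way was not measured.

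The merged ATAC-seq lists held 30862 peaks in HET and 19272 in WT, and they allow no test because there is 1 list per genotype. A peak within 1000 bases of the Ensembl 5′ end was listed for 33 of 37 genes (89.2%) in HET and 31 (83.8%) in WT, against 63.7% of 18026 tested genes in HET and 57.3% in WT. Hspa1a and Hspa1b had a peak in the HET list only, which is 5.41% of members against 8.09% of all genes, and 0 members had one in the WT list only, against 1.63%. The upstream sequences of this pair are nearly identical, as given above. How ATAC-seq reads were placed between the copies is not given, so these peaks may not be independent. The Hspa1b peak (chromosome 17, 34959111 to 34959680, mm10) covers the upstream sequence printed above, and the Hspa1a peak spans 34972005 to 34972495. Both genes had lower mean RNA in HET, as given below, and the HET list is the longer one for the whole genome. Hsp90aa1, Hspb1, Bag3 and Atf6 had a promoter peak in neither list, and the ER genes all had one in both lists. Only the outermost annotated 5′ end of each gene was used, and a peak at another start could be missed. The absence of a peak for Hsp90aa1, Hspb1, Bag3 or Atf6 therefore does not show a closed promoter.

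The first question between genotypes was whether chaperone or stress response transcripts differed in HET cortex. Of 18050 tested genes 175 were called (0.97%), 106 higher (0.587%) and 69 lower (0.382%), and of the 37 members 0 were higher and 0 lower at an adjusted p under 0.05 in edgeR. At unadjusted p under 0.05 there were 10 members (against 22.2% of all genes), 0 higher (against 11.8%) and 10 lower (against 10.4%). The median log2 fold change over the members was -0.12, with 27 negative and 10 positive, and over all tested genes it was 0.02, with 8431 negative of 18050. At an adjusted p under 0.1 in edgeR, 4 members were lower (Dnajb5, Dnajb11, Dnajb1 and Calr), against 3.11% of all genes. In 0 members did all 7 HET libraries lie below the lowest WT library (0.283% of all genes). DESeq2 called 5 members lower (Dnajb1, Dnajb5, Dnajb11, Calr and Atf6) against 3.46% of all genes, and limma-voom with sample weights called 8 (Hspa1a, Hspa1b, Hsph1, Dnajb1, Dnajb5, Dnajb11, Calr and Pdia6) against 5.46%. Both called 0 members higher. Adjusted p depends on all genes of a fit, so it can rise while a gene's own p falls. With the excitatory marker mean as a covariate edgeR called 13 of 18050 genes and 0 members. The members' median log2 fold change was then -0.22.

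**Figure D2:**
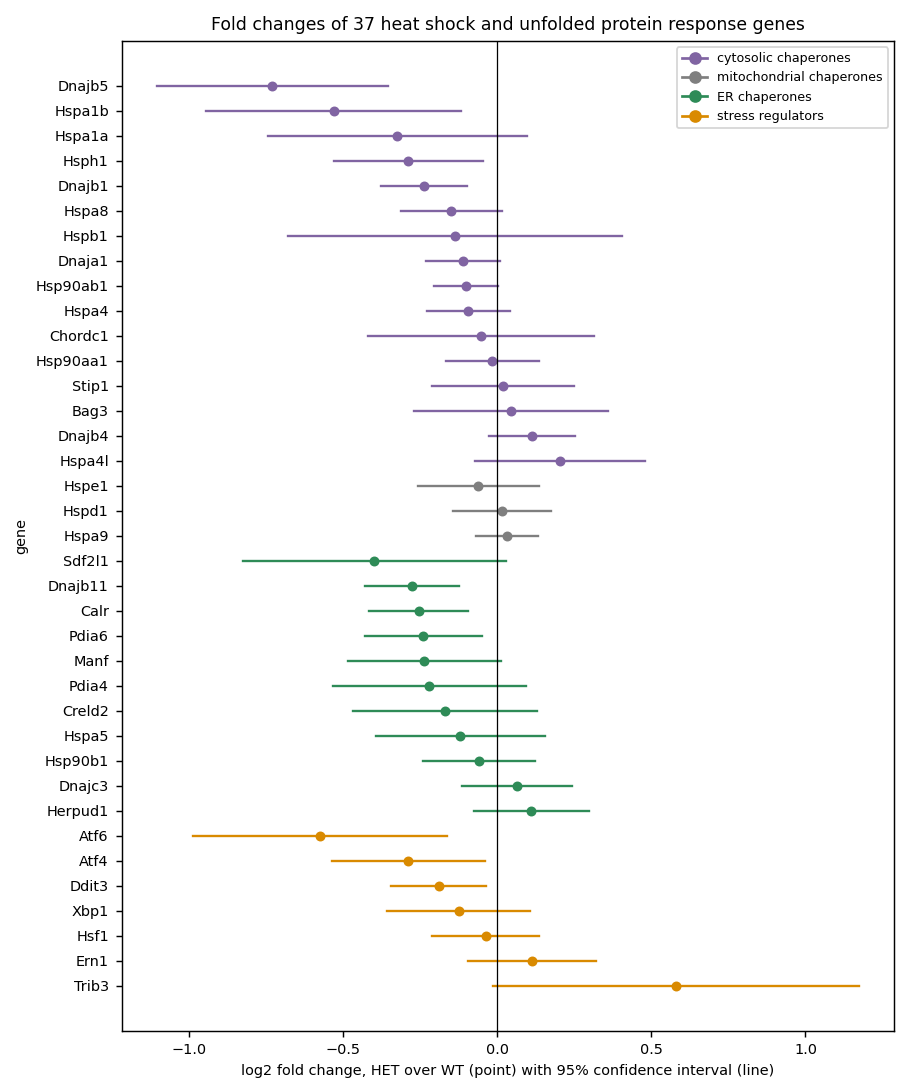
Log2 fold change, HET over WT, of each gene (point) with its 95% confidence interval (line) from edgeR, grouped by role and ordered by size. The points run from -0.73 (Dnajb5) to 0.58 (Trib3), and no gene passed the adjusted threshold.

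The cytosolic chaperones held the member farthest from 0, Dnajb5. The median log2 fold change of the group was -0.11, with 12 of 16 negative, 0 called and 4 at unadjusted p under 0.05, all lower. Dnajb5 (ENSMUSG00000036052, chromosome 4, 42949814 to 42959425, GRCm38), a J-domain co-chaperone that hands clients to Hsp70, had 77.7, 102.1 and 152 CPM (lowest, median and highest) in HET and 121, 177 and 238 CPM in WT. All 7 HET libraries lay below the WT median and 5 below the lowest WT library, WT 4. This amounted to -0.73 on the log2 scale (SE 0.18), or 0.603-fold (95% confidence interval 0.465 to 0.781), and edgeR gave an adjusted p of 0.0586. It shrank to -0.40 (adjusted p 0.279) with the excitatory marker mean as a covariate in edgeR, and HET 1 and HET 4, lowest in those markers, were also the lowest for Dnajb5.

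Dnajb1, the J-domain partner that stimulates the ATPase of Hsp70 (ENSMUSG00000005483, chromosome 8, 83608193 to 83612653), had 56.6, 58.7 and 69.0 CPM in HET and 67.2, 71.7 and 80.3 CPM in WT. Here 4 HET libraries lay below the lowest WT library and 3 within the WT range. The log2 fold change was -0.24 (SE 0.07, adjusted p 0.0771 in edgeR), and with the excitatory mean as a covariate it was -0.28. Hspa1b, the inducible Hsp70 (ENSMUSG00000090877, chromosome 17, 34956436 to 34959238), had 5.07, 7.19 and 13.3 CPM in HET and 9.04, 10.1 and 15.4 CPM in WT. HET 6 (13.3 CPM) and HET 1 (9.09 CPM) lay within the WT range and the other 5 HET libraries below it. This was -0.53 on the log2 scale (SE 0.19, adjusted p 0.135 in edgeR), and without HET 6 it was -0.71 (adjusted p 0.0303). Hspa1a had 2.73, 4.26 and 7.99 CPM in HET and 5.48, 6.00 and 6.85 CPM in WT, with HET 1 above every WT library, and -0.32 (adjusted p 0.347 in edgeR). Without HET 1 it stood at -0.49 (adjusted p 0.170), and with the excitatory mean as a covariate at -0.62 (adjusted p 0.253).

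The abundant cytosolic Hsp90 genes differed little. Hsp90ab1 (ENSMUSG00000023944, chromosome 17, 45567775 to 45573271) had 1539, 1571 and 1713 CPM in HET and 1679, 1728 and 1836 CPM in WT. All 7 HET libraries lay below the WT median and 3 within the WT range. The log2 fold change was -0.10 (SE 0.05, adjusted p 0.234 in edgeR). Hsp90aa1 had a log2 fold change of -0.02 (95% confidence interval from -0.17 to 0.14), and -0.11 with the excitatory mean as a covariate (adjusted p 0.544 in edgeR). Hsph1, an Hsp110-class nucleotide exchange factor of Hsp70, had 196, 295 and 368 CPM in HET and 334, 361 and 438 CPM in WT, which gave -0.29 on the log2 scale (adjusted p 0.156 in edgeR). HET 6 was lowest for Hsph1, and for Chordc1, an Hsp90 co-chaperone, it stood at 34.0 CPM against 73.9 to 95.9 CPM in the other HET libraries. The log2 fold change of Chordc1 was 0.08 without HET 6 (adjusted p 0.582 in edgeR), and -0.26 with the excitatory mean as a covariate (adjusted p 0.631). The other cytosolic members ran from -0.15 (Hspa8) to 0.20 (Hspa4l, an Hsp110 relative), with adjusted p from 0.252 upward in edgeR. For Hspa8, 5 HET libraries lay below the lowest WT library (adjusted p 0.263 in edgeR). With the excitatory mean as a covariate Hspa8 stood at -0.25 (adjusted p 0.232). Hspb1, Dnaja1 (a J-domain co-chaperone), Hspa4 and Chordc1 were negative at -0.14, -0.11, -0.09 and -0.05, and Dnajb4 (another J-domain co-chaperone), Bag3 (which links Hsp70 to selective autophagy) and Stip1 (which bridges Hsp70 and Hsp90) were positive at 0.11, 0.04 and 0.02.

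**Figure D3:**
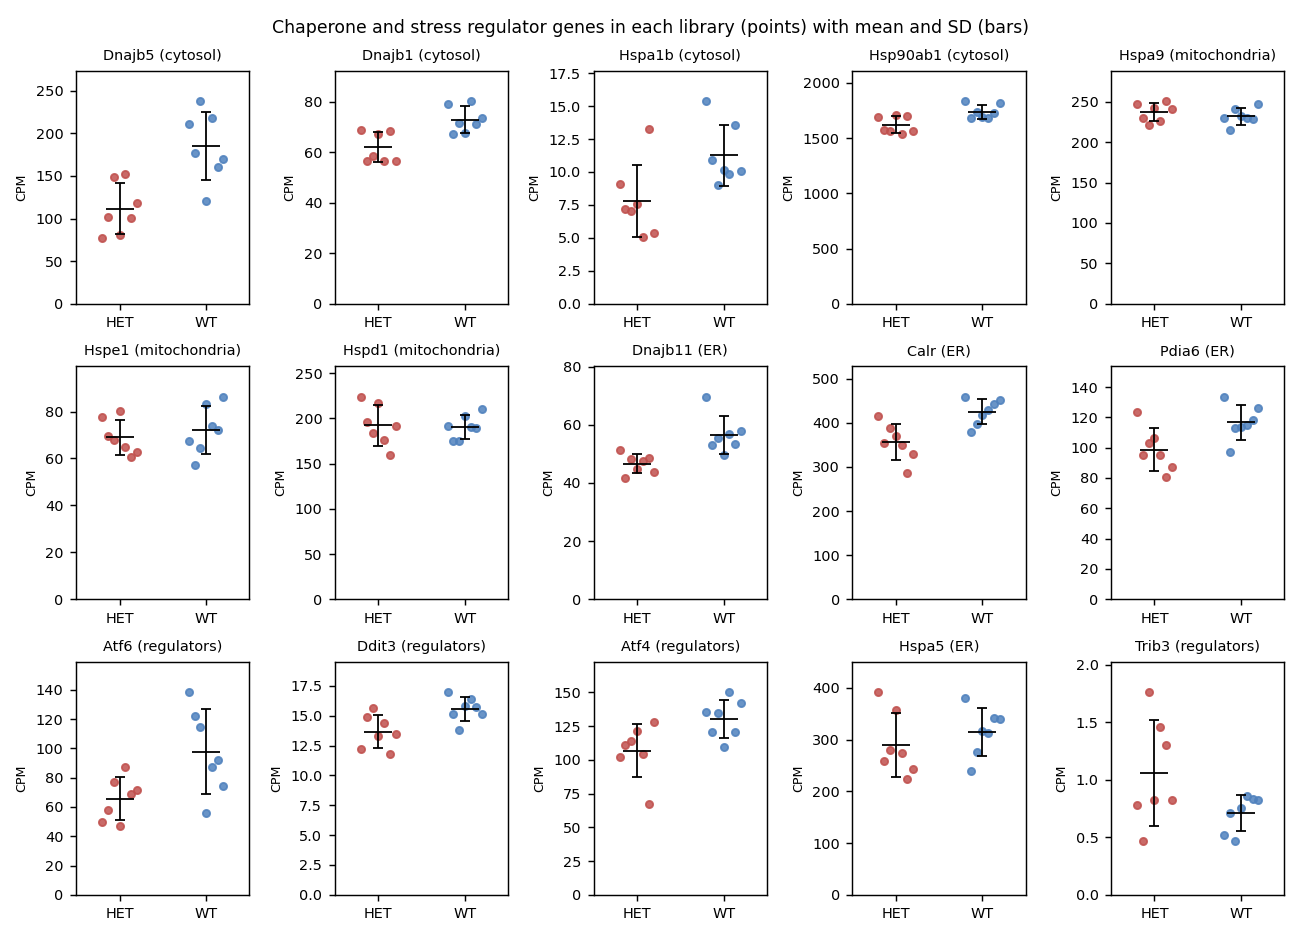
CPM of the named genes in each HET (left) and WT (right) library, with the mean and SD over 7 libraries; every axis starts at 0. Dnajb5 has its HET points at 77.7 to 152 CPM and its WT points at 121 to 238 CPM, and in each panel the groups overlap.

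The 3 mitochondrial chaperones lay on both sides of 0. Hspa9, the mitochondrial Hsp70 that also drives protein import, had 222, 241 and 251 CPM in HET and 216, 230 and 248 CPM in WT. Hspd1, the chaperonin Hsp60, had 159, 192 and 224 CPM in HET and 174, 190 and 210 CPM in WT. Hspe1, its lid Hsp10, had 60.4, 67.7 and 80.2 CPM in HET and 57.2, 72.2 and 86.4 CPM in WT. The ranges of the genotypes overlapped almost entirely in each. Log2 fold changes were 0.03 for Hspa9 (95% confidence interval from -0.07 to 0.13), 0.01 for Hspd1 (-0.14 to 0.17) and -0.06 for Hspe1 (-0.26 to 0.13), and adjusted p ran from 0.729 to 0.930 in edgeR. Hspe1 stood at -0.23 with the excitatory mean as a covariate (adjusted p 0.246 in edgeR). With 3 marker means (excitatory, striatal and thalamic) it was also -0.23 (adjusted p 0.155), and without WT 7 it was -0.01 (adjusted p 0.950). Hspd1 and Hspe1 are neighbours on opposite strands and share 112 exon bases (7.6% of Hspe1), and reads over more than one gene were left out of the counting, which ignored strand. Larger shares of exon bases overlapped other annotated genes in Hspa1a (19.0%), Hsp90b1 (15.7%), Ddit3 (10.9%), Manf (9.3%) and Dnaja1 (7.9%). The levels of these genes may therefore be understated.

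Of the 11 ER genes 9 were negative, with a median log2 fold change of -0.22, 0 called and 3 at unadjusted p under 0.05, all lower. Dnajb11, the ER J-domain co-chaperone of BiP (ENSMUSG00000004460, chromosome 16, 22857845 to 22879634), had 41.7, 47.6 and 51.5 CPM in HET and 49.5, 55.5 and 69.7 CPM in WT. Of the 7 HET libraries 6 lay below the lowest WT library, the most of any member, and the seventh was HET 1. The log2 difference was -0.28 (SE 0.07, adjusted p 0.0652, unadjusted p 0.0014 in edgeR). With the excitatory mean as a covariate it was -0.24 (adjusted p 0.275, unadjusted p 0.0125 in edgeR). Calr (ENSMUSG00000003814, chromosome 8, 84841850 to 84846934) had 287, 355 and 415 CPM in HET and 379, 429 and 459 CPM in WT, with 5 HET libraries below the lowest WT library. Its log2 fold change was -0.26 (SE 0.08, adjusted p 0.0856, unadjusted p 0.0040 in edgeR). With the excitatory mean it was -0.33, with a lower unadjusted p of 0.0011 and a higher adjusted p of 0.166 in edgeR. Pdia6 (ENSMUSG00000020571, chromosome 12, 17266545 to 17284770) had 80.6, 95.4 and 123 CPM in HET and 97.1, 115 and 134 CPM in WT, and -0.24 (SE 0.09, adjusted p 0.140 in edgeR). For Pdia6 HET 1, 3 and 4 reached the WT range and the other 4 HET libraries lay below it.

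Hspa5, the ER chaperone that also holds the stress sensors inactive, had 224, 274 and 392 CPM in HET and 239, 316 and 380 CPM in WT. HET 1 was the highest and HET 6 the lowest of all 14 libraries. On the log2 scale the difference was -0.12 (SE 0.13; 95% confidence interval -0.39 to 0.15), and edgeR gave an adjusted p of 0.617. Hspa5 stood at -0.35 with the excitatory mean as a covariate (adjusted p 0.265 in edgeR), at -0.46 with the immediate early gene mean (adjusted p 0.299) and at -0.30 without HET 1 and HET 4 (adjusted p 0.228). Leaving out single libraries gave -0.21 without HET 1, -0.07 without HET 6 and -0.07 without WT 1. Sdf2l1 (a partner of Dnajb11), Manf (a secreted neurotrophic factor of the ER) and the disulfide isomerase gene Pdia4 stood at -0.40, -0.24 and -0.22, and Creld2 and Hsp90b1 at -0.17 and -0.06. Dnajc3 and Herpud1, which acts in ER-associated degradation, were positive at 0.07 and 0.11. HET 1 and HET 4, the lowest in excitatory markers, were the highest HET libraries for 8 of the 11 ER genes, among them Hspa5, Hsp90b1, Sdf2l1 and Manf. Without these libraries the median log2 fold change over the 37 members was -0.19, with 0 called in edgeR, a fit chosen after the data were seen.

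Among the 7 regulators 5 were negative, with a median log2 fold change of -0.13, 0 called and 3 at unadjusted p under 0.05, all lower. Atf6, the membrane-bound sensor whose cleaved part induces ER chaperones (ENSMUSG00000026663, chromosome 1, 170704674 to 170867771), had 46.9, 69.1 and 87.4 CPM in HET and 55.7, 92.1 and 139 CPM in WT. HET 4 was the lowest HET library and WT 4 the lowest WT library, the same order as for the excitatory markers, in which WT 4 (5.67) was the lowest of WT. The log2 fold change was -0.58 (SE 0.19, adjusted p 0.115 in edgeR), -0.18 (adjusted p 0.653) with the excitatory mean as a covariate and -0.68 (adjusted p 0.0283) without WT 4. Ddit3 (ENSMUSG00000025408, chromosome 10, 127290774 to 127296288) had 11.8, 13.4 and 15.6 CPM in HET and 13.8, 15.7 and 17.0 CPM in WT, and -0.19 (SE 0.07, adjusted p 0.150 in edgeR). Atf4 (ENSMUSG00000042406, chromosome 15, 80255184 to 80257541), the translation-controlled factor of the integrated stress response, had 67.0, 111 and 128 CPM in HET and 110, 135 and 150 CPM in WT. All 7 HET libraries lay below the WT median for Ddit3 and for Atf4, with overlap of the groups in both. For Atf4 the log2 fold change was -0.29 (SE 0.12, adjusted p 0.166 in edgeR).

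The remaining regulators stood on both sides of 0. Trib3 had 0.463, 0.823 and 1.76 CPM in HET and 0.465, 0.751 and 0.858 CPM in WT, with HET 3, 5 and 6 above every WT library. Its log2 fold change was 0.58 (SE 0.28, adjusted p 0.235 in edgeR), the most positive of the members, at the lowest level. Xbp1, the factor spliced by IRE1, stood at -0.13, Hsf1, the regulator of the heat shock response, at -0.04 and Ern1 at 0.11. Counts per gene give no splicing of Xbp1, cleavage of ATF6 or translation of Atf4, the steps by which the unfolded protein response is known to be switched on.

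**Figure D4:**
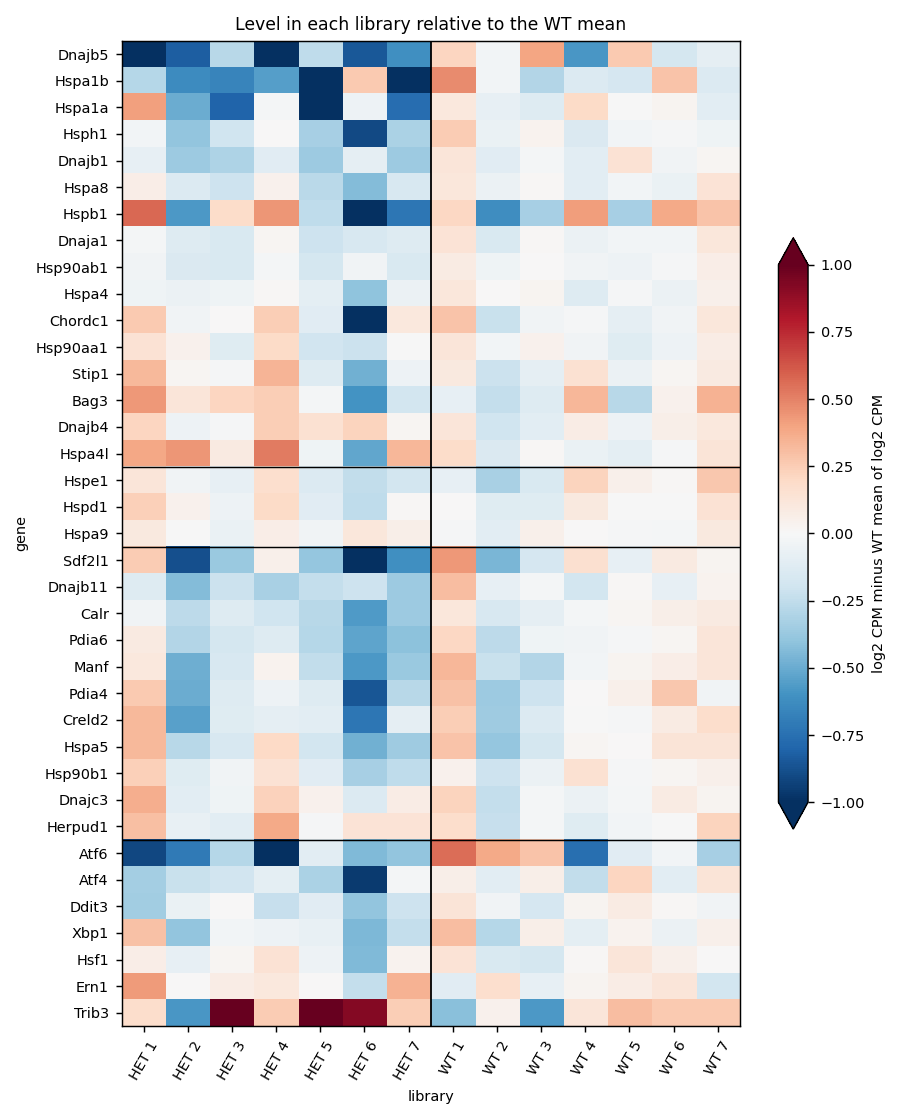
Log2 CPM of each gene (rows, grouped by role) in each library (columns, HET left of WT) minus the WT mean of that gene; blue is lower and red higher, with the scale ending at 1 and -1. HET 6 is low for Chordc1 and most ER genes, HET 1 is high for Hspa5 (392 CPM), and HET 1 and HET 4 are low for Dnajb5 (77.7 and 80.98 CPM) and Atf6 (50.1 and 46.9 CPM).

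Whether edgeR called any member changed when single libraries were left out. Without HET 6 edgeR called 4 members lower (Hspa1b, Dnajb1, Dnajb5 and Dnajb11), against 2.77% of all genes. The unadjusted p in edgeR then fell for Hspa1b and Dnajb1 (0.00044 and 0.0012, against 0.0153 and 0.0025 with all libraries). It rose for Dnajb5 and Dnajb11 (0.0024 and 0.0018, against 0.00087 and 0.0014), in a fit that called 1110 genes. Without WT 4 edgeR called 4 members (Dnajb1, Dnajb5, Dnajb11 and Atf6), against 4.83%. Without HET 5 it called Dnajb5 alone, against 0.553%. In the other 11 such fits 0 members were called, and 0 were called higher in any of the 14. Across these fits the genes called in the whole table ran from 11 to 1672.

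The wider proteostasis network was followed in 4 lists of other genes. Of 53 tested cytosolic chaperones and co-chaperones outside the 37, 0 were higher and 0 lower in edgeR, and 13 had an unadjusted p under 0.05, all lower (against 22.2% of all genes in either direction and 10.4% lower), with a median of -0.02 over the list. Of 21 mitochondrial proteostasis genes 0 were called and 1, which was lower, had an unadjusted p under 0.05, against the same 22.2% (median -0.004). Of 37 genes of ER folding and degradation 0 were called, with 3 higher and 3 lower at unadjusted p under 0.05 (against 11.8% and 10.4% of all genes) and a median of 0.04. Of 31 further regulators of the unfolded protein and integrated stress responses 1 rose and 1 fell, against 0.587% higher and 0.382% lower of all genes, with 2 higher and 5 lower at unadjusted p under 0.05. Eif2ak4, which encodes the amino acid sensing kinase GCN2 (ENSMUSG00000005102, chromosome 2, 118388618 to 118475234), had 24.8, 27.5 and 31.4 CPM in HET and 21.5, 22.3 and 25.1 CPM in WT. That is a log2 fold change of 0.28 (SE 0.06, adjusted p 0.0375 in edgeR). Cebpb, a transcription factor that is also a target of ATF4 (ENSMUSG00000056501, chromosome 2, 167688915 to 167690418), had 4.47, 5.23 and 6.620 CPM in HET and 6.621, 7.41 and 9.77 CPM in WT, with every HET library below the lowest WT library. Its log2 fold change was -0.54 (SE 0.11, adjusted p 0.0375 in edgeR). Cebpb lies close to the mutated gene Adnp (chromosome 2, 168180986 to 168207112), and a link of its level to that locus was not tested. Leaving out libraries in turn kept both calls in 3 of 14 fits, those lacking HET 5, HET 6 or WT 4. In edgeR the highest adjusted p over the 14 was 0.0940 for Eif2ak4 and 0.0850 for Cebpb. With the excitatory mean as a covariate neither gene was called (adjusted p 0.1002 and 0.166 in edgeR), with log2 fold changes of 0.33 and -0.53. Their unadjusted p in edgeR was 0.00016 and 0.00092 with this covariate, against 0.00014 and 0.00011 without it.

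The last question was whether the members vary together from mouse to mouse. Log2 CPM of the other 10 ER genes were set against Hspa5, and of the other 15 cytosolic genes against Hsph1, over 14 libraries (25 pairs, two-sided permutation tests with Benjamini-Hochberg adjustment over them; the libraries share scaling by total counts). With Hspa5, Pearson's r ran from 0.485 to 0.92 with a median of 0.872, and 8 of 10 pairs passed by both Pearson's r and Spearman's rho. Over all tested genes the median r with Hspa5 was -0.01. Hsp90b1 had r = 0.920 and rho = 0.930 (adjusted permutation p 8.3e-05 and 0.00025), Manf r = 0.918 and rho = 0.903 (0.0001 and 0.00025) and Sdf2l1 r = 0.911 and rho = 0.943 (8.3e-05 and 0.00025). The smallest unadjusted p that 100000 permutations can give is 1e-05. Herpud1 (r = 0.545, adjusted permutation p 0.0703) and Dnajb11 (r = 0.485, adjusted permutation p 0.103) did not pass.

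Within HET alone the median r with Hspa5 was 0.884, with 8 of 10 pairs at an exact permutation p under 0.05, and within WT it was 0.924, with 9 of 10 (n = 7 each). Leaving out the 2 libraries farthest from the median of Hspa5 gave r from 0.548 to 0.906, with a median of 0.812. Among all 18050 tested genes the 20 with the highest r to Hspa5, listed after the values were seen, held 8 members. Hyou1 and Pdia3, an ER nucleotide exchange factor and a disulfide isomerase from the list of other ER genes, were first and second (r = 0.942 and 0.922), and Xbp1 (0.850) and the small heat shock gene Hspb1 (0.901) were also among them. Hsph1 gave a looser picture: r ran from -0.202 (Dnajb4) to 0.907 (Hspa4), with a median of 0.512 over 15 pairs, and 7 passed by r and 5 by rho. Only Hspa4, Hspa8 and Dnaja1 passed by both, and Hsp90ab1 and Dnajb1 passed by rho alone. Leaving out the 2 libraries farthest from the median of Hsph1 gave r from 0.001 to 0.888, with a median of 0.616. Of the pairs that had passed by r, Chordc1 stood at 0.419, Hspb1 at 0.381 and Stip1 at 0.333 without these libraries, so those relations rest on them. Dnajb1 (0.871, against 0.512 over all 14) and Hsp90ab1 (0.888, against 0.497) were higher without them. Within HET 8 of 15 pairs had an exact permutation p under 0.05 and within WT 1 of 15 (median r 0.736 and 0.647, n = 7 each). Among the 20 genes most alike to Hsph1 there were 3 members, the cytosolic Hspa4 and Hspa8 and the ER gene Sdf2l1.

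**Figure D5:**
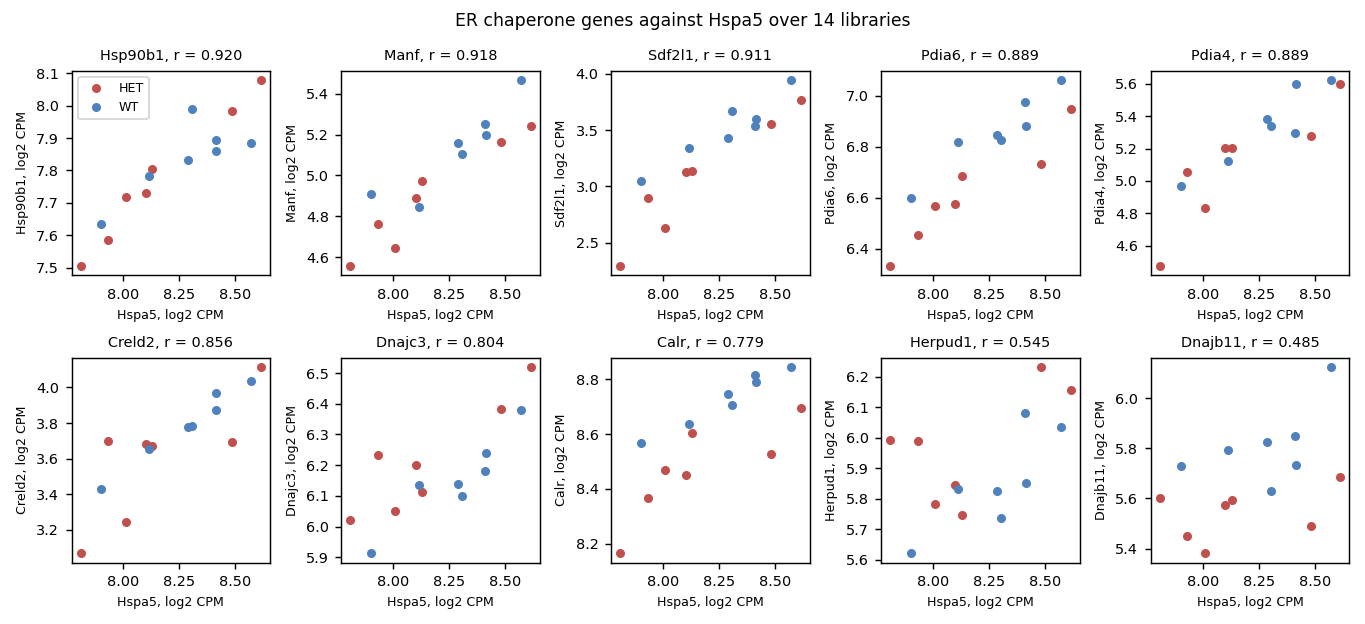
Log2 CPM of the 10 other ER genes (vertical axes) against log2 CPM of Hspa5 (horizontal axes) in 7 HET (red) and 7 WT (blue) libraries, ordered by Pearson's r. Points of both genotypes lie along the same line for Hsp90b1 (r = 0.920), while for Dnajb11 (r = 0.485) and Calr (r = 0.779) HET points lie under WT points at like Hspa5 levels.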

How the data were processed

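Polyadenylated RNA from frontal cortex of 7 HET and 7 WT mice was sequenced as paired reads of 150 bases, per the labels' protocols. The authors deposited raw counts per gene, with 1 table for each mouse. Their counting tool was featureCounts 2.0.1, run over exons of the Ensembl GRCm38 annotation without regard to strand (setting 0), per the file headers; mates count singly, and its defaults drop reads over several genes or places. The submitters' processing notes also name STAR, Trimmomatic and Subread, with no versions. The deposited ATAC-seq lists hold positions on mm10, 1 list per genotype, with no other value, and the merging follows their names; the notes name MACS3, and settings or depth are not given. Hi-C (4 samples) and the PAT and Control ATAC-seq samples were not used here.

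Counts were filtered with filterByExpr, given TMM factors and fitted in edgeR 4.0.16 (R 4.3.3) by its robust quasi-likelihood method with genotype as the term, two-sided, and p-values were adjusted by Benjamini-Hochberg over 18050 genes, called under 0.05. The biological coefficient of variation common to all genes was 0.248. CPM are TMM-scaled and RPKM are CPM per kilobase of exon, with SD over 7 libraries; log2 CPM for list means and correlations used a prior count of 2. No 2 libraries agreed within sampling noise (lowest chi-square per degree of freedom 10.1 over 91 pairs). Ddit3 has 2 gene IDs, of which the one with counts was used. The tests were tested on simulated data.

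The members and gene lists were chosen with earlier results of these data known. Named in full were called genes, per role group the 3 smallest p and the highest WT level per kilobase, and up to 4 called genes per other list; Hspa1a, Hsp90aa1, Hsph1, Chordc1, Hspa5 and Trib3 were added after their values were seen. Other settings tried were limma-voom with sample weights (limma 3.58.1), DESeq2 1.42.0, edgeR with DESeq2 size factors, no filter or 1 CPM in 7 libraries, a replicate block, marker means as covariates, a threshold of 0.1 and leaving out each library. An immediate early gene covariate and a fit without the 2 libraries lowest in excitatory markers were chosen after seeing the data. For peaks the windows of 250 and 2000 bases, at least 0.5 of a peak inside the window and the widest HET peaks in equal number were tried.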

Additional observations from a re-analysis of the deposited data

Results flagged for a closer look

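Within each genotype the 7 values of each of the 37 genes were screened for a library far from the others (Dixon's ratio above its critical value at 95%). Of 74 sets 5 had one, and chance gives about 1 in 20. HET 6 accounted for 3 of the 5. It had 34.0 CPM of Chordc1 against 73.9 to 95.9 CPM in the other HET libraries, 219 CPM of Hspa4 against 271 to 292, and 67.0 CPM of Atf4 against 102.4 to 128. WT 1 accounted for the other 2, with 438 CPM of Hsph1 against 334 to 377 CPM in the other WT libraries and 69.7 CPM of Dnajb11 against 49.5 to 57.7. HET 6 was also lowest of all libraries in the mean of oligodendrocyte markers (7.39 log2 CPM). Whether this mean and the low chaperone values are linked was not tested.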

How the results depend on the processing

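Of 18050 genes 175 were called; the count was 1195 at an adjusted p under 0.1, 106 without a filter, 13 with the excitatory mean, 23 with 3 marker means, 1392 in DESeq2, 1934 in limma-voom, 4 with the immediate early gene mean, 13 without the 2 libraries lowest in excitatory markers, and 11 to 1672 with each library left out. Members called lower were 0, and 4 at an adjusted p under 0.1, 5 in DESeq2, 8 in limma-voom and 0 to 4 with each library left out (4 without HET 6 or without WT 4, 1 without HET 5); members called higher were 0 in all of these. The members' median log2 fold change of -0.12 was -0.28 with the immediate early gene mean; in the other fits it ran from -0.23 to -0.08. With the replicate number as a block 10 genes and 0 members were called. The labels state no pairing of mice by number. Deviations of same-numbered mice correlated from -0.284 to 0.334, which does not decide whether the numbers pair mice. The sign of Hspd1 turned with the excitatory mean and with 3 marker means (both -0.12), with the immediate early gene mean (-0.12), without the 2 libraries (-0.071) and in 4 fits that left out a library (-0.025 to 0.055 over the 14); that of Hspa9 turned with the immediate early gene mean (-0.015). Hsp90aa1 turned positive in limma-voom (0.0041) and in 4 fits that left out a library (-0.053 to 0.015 over the 14), and Chordc1 in limma-voom (0.022) and without HET 6 (-0.11 to 0.077 over the 14). No other member named in full changed sign. With the immediate early gene mean Pdia6 stood at -0.46, Hsp90ab1 at -0.17 and Ddit3 at -0.12 (adjusted p 0.215, 0.390 and 0.705 in edgeR), Hsph1 at -0.53, Hspa1a at -0.77 and Trib3 at 0.90, each over 1.5 times from its value above; Trib3 was 0.35 in limma-voom. Promoter peaks were listed for 33 members in HET throughout, and in WT for 30 rather than 31 with a window of 250 bases or with at least 0.5 of the peak inside. Scaling with DESeq2 size factors left the count of pairs passing by r at 8 of 10 with Hspa5 and 7 of 15 with Hsph1. With 7 mice a genotype, a member that missed the threshold is not shown to be equal in HET and WT. The peak lists allow no test of opening.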

Other observations

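A total of 5 of the other proteostasis genes are given here with values that did not pass the test; they were picked after their values were seen. All 5 were lower in HET at an adjusted p under 0.1 in edgeR, as were 562 of 18050 tested genes (3.11%). The lists they come from do not share a direction. In the list of ER folding and degradation 20 of 37 genes were positive, and 3 of them and 2 further regulators were higher at unadjusted p under 0.05. Ier5, a regulator of HSF1 activity, had a mean of 42.8 CPM (SD 21.2) across the 7 HET libraries, against 100.01 CPM (SD 37.0) across the 7 WT libraries, a log2 fold change of -1.22 with an adjusted p of 0.0790 in edgeR. For Ier5, 4 HET libraries lay below the lowest WT library. Atf3, a transcription factor induced downstream of ATF4, was low throughout, with a mean of 0.733 CPM (SD 0.397) in HET cortex against 1.93 CPM (SD 0.970) in WT cortex. Its log2 fold change was -1.39 with an adjusted p of 0.0835 in edgeR, and 3 HET libraries lay below the lowest WT library. The 12 immediate early genes described above were all negative too, with a median log2 fold change of -1.05. Whether the levels of Ier5 and Atf3 go with theirs was not tested. The J-domain co-chaperone gene Dnaja4 had a mean of 26.2 CPM (SD 2.11) in HET cortex against 32.3 CPM (SD 3.90) in WT cortex, at an adjusted p of 0.0664 in edgeR, with 4 HET libraries below the lowest WT library.

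Atf6b, the paralog of the ER stress sensor gene Atf6, had a mean of 55.7 CPM (SD 4.34) in HET cortex against 66.2 CPM (SD 5.30) in WT cortex, at an adjusted p of 0.0632 in edgeR. Selenok, a selenoprotein gene of the ER membrane, differed by -0.19 on the log2 scale, at an adjusted p of 0.0586 in edgeR. For Atf6b and for Selenok, 5 HET libraries lay below the lowest WT library.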
